A study of Mus musculus with 16 samples.

Results

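GABA-A receptors are chloride channels built of several subunits around a central pore, and they carry much of the fast inhibition of spinal neurons, alongside glycine receptors. Most hold alpha and beta subunits, between which GABA binds, together with a gamma subunit that completes the binding site of classical benzodiazepines. Which alpha subunit is present sets much of the channel's kinetics, place in the cell and drug response. Examined here were 7 subunit genes, *Gabra2*, *Gabra3*, *Gabra4*, *Gabra5*, *Gabrb1*, *Gabrb2* and *Gabrg1*, out of the 18167 genes measured in mouse spinal cord. All 7 were present, and their lowest mean log2(1 + FPKM) over the 16 mice was 2.58 (*Gabra4*), where FPKM is a fragment count scaled by transcript length and library size. The genes were chosen from the measured values themselves, since *Gabra2* was known to be low in 1 group of young mice (WY), so differences that involve the WY mice are given for these 7 genes as description, without a test. Changes between the other groups were tested.

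RNA was sequenced from whole spinal cords, 1 library per mouse. The mutant mice, of line 838Kiaei with the transgene Tg(Prnp-PFN1*G118V), carried human profilin1 (PFN1) with the G118V change and were either at the end stage of motor neuron disease (mutant old, MO, n = 5, 175 to 245 days) or pre-symptomatic at 50 days (mutant young, MY, n = 3). The control mice, of line 850Kiaei with the transgene Tg(Prnp-PFN1), carried the unchanged human gene and were wild-type old (WO, n = 5, 190 to 294 days) or wild-type young (WY, n = 3, 50 days). According to the labels all mice were males, both lines were on the C57BL/6N background, and no mouse without a human transgene was included. In both strains the *Prnp* promoter, which is active in neurons and many other cells, drives the transgene, and each genotype was represented by 1 line. Libraries were made in 2 batches. Batch 2 held MO4, MO5, WO4 and WO5, the WO mice among them at 294 days, and batch 1 held the other 12. A log2 fold change is the mean log2(1 + FPKM) of the second group minus that of the first (MY vs. MO is MO minus MY). For a gene near or under 1 FPKM, it understates the ratio of the FPKM themselves. How many fragments lie behind a gene is not known, and precision was judged by how much the mice varied.

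Some libraries stood apart. In MO5 the X-inactivation transcript *Xist* was 3.21, against at most 0.37 in the other 15 mice, while the Y-linked *Ddx3y* was 1.95 in MO5 and at least 4.06 elsewhere. The Y-linked *Eif2s3y*, *Kdm5d* and *Uty* were also lowest in MO5 (1.82, 1.07 and 1.05), so this library went against its label of a male mouse. WY1 lay farthest out on the second principal component of all genes (−132, against −50.0 to 102 in the other 15 mice), a component that held 13.6% of the variance. MO1 was highest on it (102, next WY2 at 32.6), and WO4 had *Mbp* at 5.36, against at least 12.16 in every other mouse. Several results below are therefore given with and without MO5 or WY1. The tissue label was matched by *Hoxc8*, the most abundant of 7 position genes of the spinal cord, which was between 4.31 and 5.14 in all mice. Some defining markers of neighboring tissues were near 0 in all mice, with *Scn10a* of sensory ganglia at most 0.02 and *Myh4* of skeletal muscle at most 0.04. The summed FPKM of 3 Schwann cell markers was 1.24 to 2.47 per mouse and that of 4 muscle markers 1.41 to 3.56. Other such markers were present: 5 sensory ganglion markers summed to 47.1 to 69.1 FPKM, led by *Prph*, which motor neurons also express. The 4 blood markers summed to 11.7 (MO1, next MO5 at 43.3) to 96.8 FPKM, led by *Hba-a1*, and 4 markers of meningeal fibroblasts to 12.9 to 18.4, led by *Dcn*. The 2 cerebellar granule cell markers in the table reached 1.17 at most.

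Of the 7 genes, 4 lie in 1 cluster on chromosome 5 in the genome build GRCm38 (GENCODE M21). *Gabrg1* spans chr5:70751047-70842617, *Gabra2* chr5:70957597-71095849 and *Gabra4* chr5:71569749-71658308, all on the minus strand, and *Gabrb1* spans chr5:71658113-72149037 on the plus strand. *Gabra4* and *Gabrb1* start head to head and share 196 bases, so reads from that stretch may not be told apart unless strand was used in the counting. The 3 other genes lie elsewhere, *Gabra5* at chr7:57407672-57510059 (minus strand), *Gabrb2* at chr11:42419757-42629028 (plus strand) and *Gabra3* at chrX:72432681-72656848 (minus strand). The principal transcript of *Gabra2* has 10 exons spread over 138253 bases. Over the 16 mice the mean level was highest for *Gabra3* (log2(1 + FPKM) 5.38), followed by *Gabra2* (5.11), *Gabra5* (4.72), *Gabrg1* (3.67), *Gabrb2* (3.34), *Gabrb1* (3.19) and *Gabra4* (2.58). Each gene's range over the mice overlapped that of the next gene in this order except between *Gabra5* (lowest mouse 4.45) and *Gabrg1* (highest mouse 3.94) and between *Gabrb1* (2.77) and *Gabra4* (2.73).

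**Figure D1:**
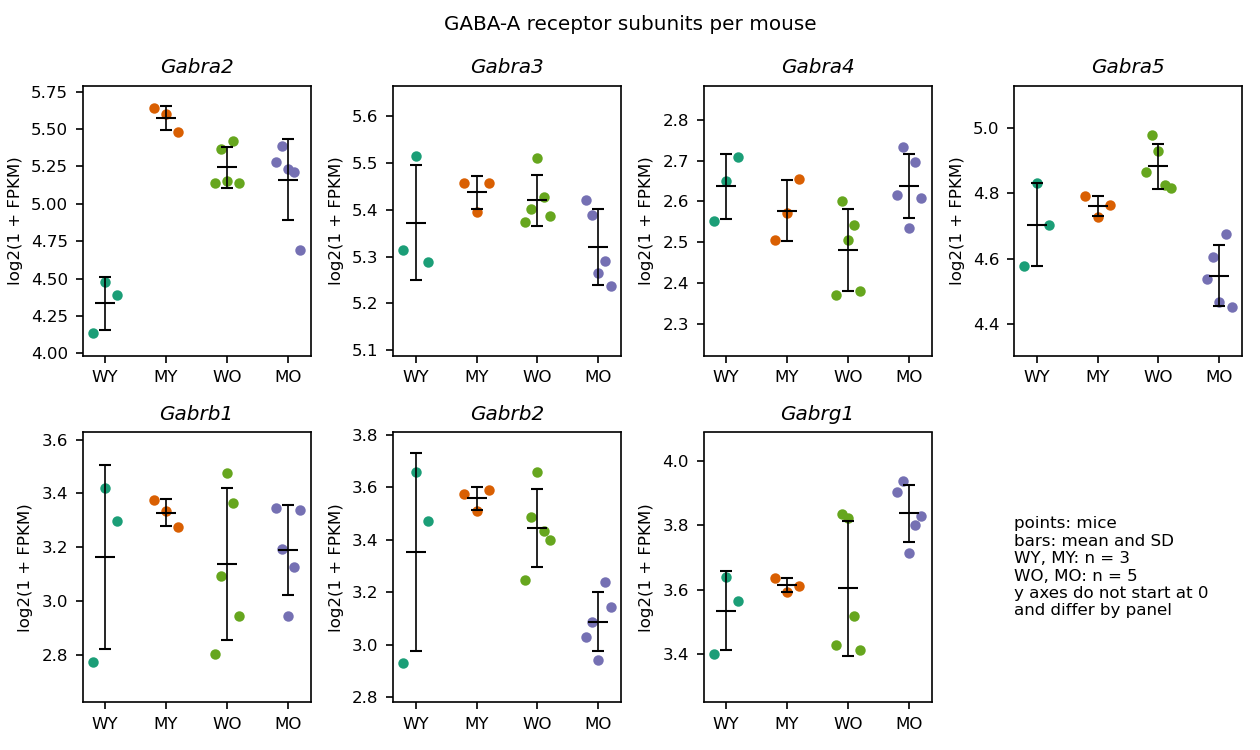
Level of each of the 7 subunit genes per mouse as log2(1 + FPKM), with 1 point per mouse, the group mean as a horizontal line and the SD as the error bar (WY and MY n = 3, WO and MO n = 5). *Gabra2* was between 4.13 and 4.48 in the WY mice and at least 4.69 in all others, and *Gabrb2* and *Gabra5* were lower in every MO mouse than in any MY or WO mouse.

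*Gabra2* encodes the alpha-2 subunit, which is found at inhibitory synapses of spinal neurons. Its level was 4.13, 4.48 and 4.39 in the WY mice and 5.64, 5.60 and 5.48 in the MY mice. In the WO mice it was 5.14, 5.37, 5.15, 5.42 and 5.14, and in the MO mice 5.28, 5.39, 5.23, 5.21 and 4.69, the last being MO5. All 3 WY mice were thus below all 13 others, with a gap of 0.21 between WY2 and MO5, and of 0.66 between WY2 and the next mouse once MO5 was left out. The group means ± SD were 4.33 ± 0.18 (WY, n = 3), 5.57 ± 0.08 (MY, n = 3), 5.24 ± 0.14 (WO, n = 5) and 5.16 ± 0.27 (MO, n = 5). In this order MY lay highest without overlap, WO and MO overlapped, and WY lay lowest without overlap. The mean of WY minus that of the other 13 mice was −0.95. It was −0.85 without WY1 and −1.03 within batch 1, and the value without MO5 lay between these. Against the WO mice, which are of the same line, WY minus WO was −0.91 (−0.81 without WY1). Against the MY mice, of the same age and batch, WY minus MY was −1.24 (−1.14 without WY1). The gene was chosen by this pattern, so these differences carry no test.

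Among all genes, 51 (0.281%) had all 3 WY mice below the other 13, and 138 had all 3 above. Of the 51, *Gabra2* had the second largest difference of means. The largest was that of *Txnip* (−1.03), named here after its values were seen. None of the 6 other subunit genes had all its WY mice outside the range of the other mice. Their WY minus other differences were small: −0.01 for *Gabra3*, 0.07 for *Gabra4*, −0.02 for *Gabra5*, −0.04 for *Gabrb1*, 0.02 for *Gabrb2* and −0.16 for *Gabrg1*. WY1 alone was the lowest of all 16 mice for *Gabrb1* (2.77), *Gabrb2* (2.93) and *Gabrg1* (3.40). Without WY1, the WY mean was 3.359 for *Gabrb1* and 3.565 for *Gabrb2*, above the means of the 13 others (3.201 and 3.333). For *Gabrg1* it was 3.602, below the 3.696 of the others.

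Strain background was examined through genes known to differ between the C57BL/6J and C57BL/6N substrains. As background, C57BL/6J mice carry a small intronic deletion in *Gabra2* that lowers its mRNA, and a deletion in *Nnt*, a mitochondrial transhydrogenase gene, whereas C57BL/6N mice carry neither. *Nnt* was 3.75, 2.89 and 2.77 in the WY mice, 3.81, 3.79 and 3.79 in the MY mice, and between 3.41 and 4.04 in the WO and MO mice. WY2 and WY3 were therefore below all other mice, while WY1 was within their range. *Wdfy1*, an endosomal adaptor gene of the same list, was 3.01, 3.85 and 2.94 in the WY mice and between 3.77 and 4.35 in the other 13. Here WY1 and WY3 were low and WY2 was within the range of the others. Each of the 3 genes thus had its own set of low mice: all 3 WY mice for *Gabra2*, WY2 and WY3 for *Nnt*, and WY1 and WY3 for *Wdfy1*. No WO, MY or MO mouse reached these low levels of *Nnt* or *Wdfy1*.

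The 3 genes lie on different chromosomes (*Wdfy1* at chr1:79702262-79776143), and the labels put all mice on C57BL/6N. Of the 7 genes of this list in the table, limma called none with all mice in WY vs. WO, where 1.12% of all genes passed the false discovery rate (FDR) of 0.05, and none in WY vs. MY, where 0.0055% passed. The WY vs. WO share was far lower without WY3. At an unadjusted p under 0.05 there was 1 in WY vs. WO (*Wdfy1*) and 3 in WY vs. MY (*Nnt*, *Wdfy1*, *Crb1*), where 13.5% and 7.16% of all genes had such a p. For *Wdfy1*, WO minus WY was 0.76 (SE 0.20, FDR = 0.132) and MY minus WY was 1.06 (SE 0.24, FDR = 0.534). For *Nnt* the same differences were 0.37 (SE 0.20, FDR = 0.479) and 0.66 (SE 0.25, FDR = 0.676). Without WY1, WY minus WO was −0.63 for *Wdfy1* and −0.67 for *Nnt*. With single mice left out, *Nnt* was called only without WY1 (FDR = 0.0251 in WY vs. WO and 0.0123 in WY vs. MY). *Wdfy1* was called only without WY2 (FDR = 0.0241 and 0.00239). Other such fits reached an FDR of 0.814 (*Nnt*) and 0.363 (*Wdfy1*) in WY vs. WO and 0.964 in WY vs. MY. The mouse left out was each time the WY mouse that was not low for that gene, so the outcome was set by that choice and nothing is read from these calls. *Wdfy1* was also called in WY vs. WO in 1 fit of all 4 groups. WY minus the other 13 mice was 0.12 for *Crb1*, −0.08 for *Cyfip2* and 0.01 for *Ide*, and *Nlrp12* and *Mmrn1* were at most 0.06 in any mouse. A further gene of the list, *Entpd4*, was not in the table. No genotype was read at any of these loci, and the part of strain background in the level of *Gabra2* was not tested.

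**Figure D2:**
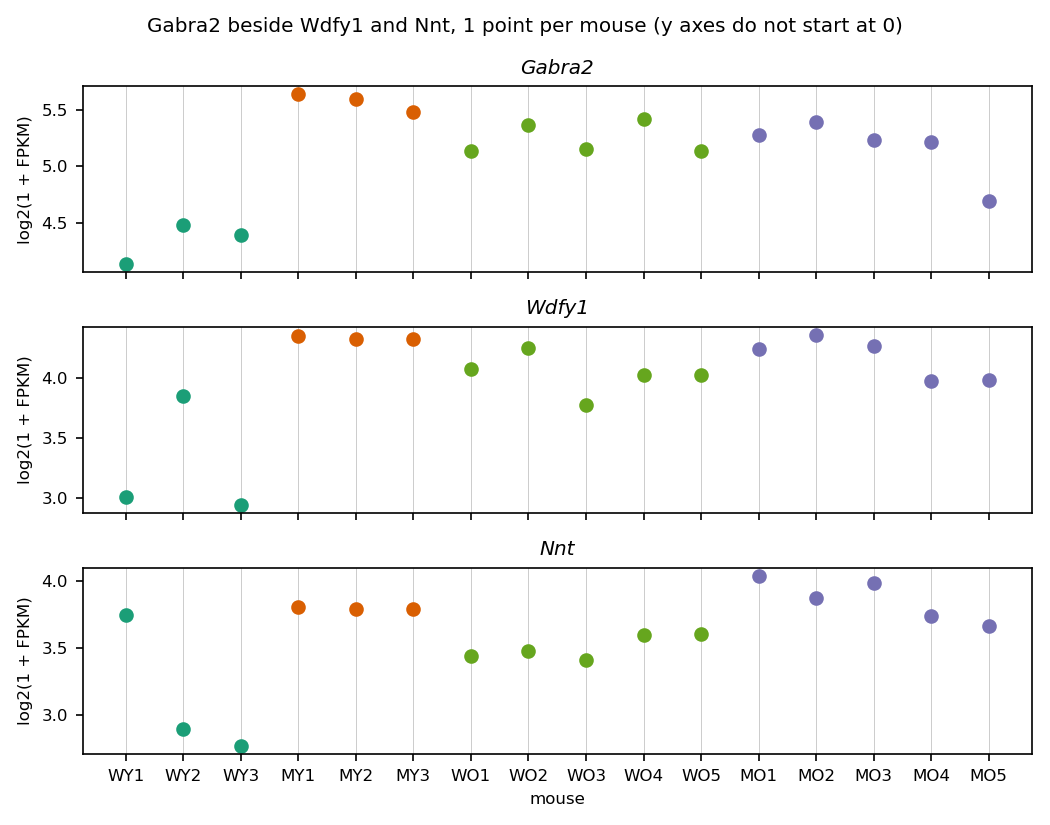
*Gabra2*, *Wdfy1* and *Nnt* in each mouse as log2(1 + FPKM), 1 point per mouse, colored by group. WY3 was low in all 3 panels, WY1 was low for *Gabra2* and *Wdfy1*, and WY2 was low for *Gabra2* and *Nnt*.

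The table held 29 genes within 3 Mb of it, itself included, and *Gabra2* was the only one of them with all 3 WY mice below the others. *Gabrg1*, the nearest subunit gene, was 3.40, 3.64 and 3.56 in the WY mice and between 3.41 and 3.94 in the other 13, so that only WY1 was lower. Next lowest by the difference of means was the tyrosine kinase gene *Tec*, with WY minus others at −0.36 and no WY mouse below all others. Its mean was 1.03 in WY, 0.98 in WO and 1.06 in MY against 2.00 in MO, so this difference reflects a high level in MO rather than a low one in WY. *Sgcb*, a sarcoglycan gene at chr5:73632749-73647790, was the only neighbor with all 3 WY mice above the others, by a mean of 0.13.

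**Figure D3:**
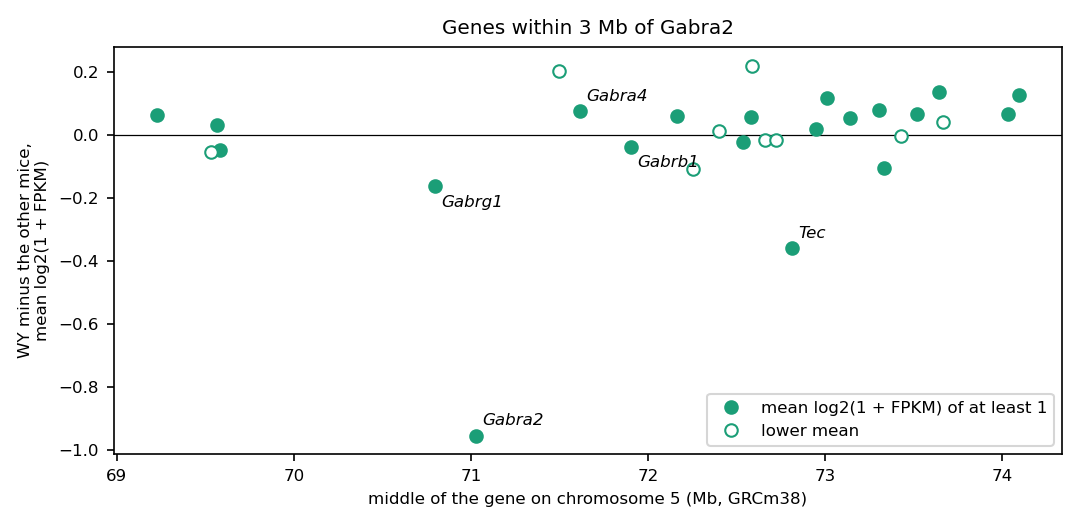
Mean of the 3 WY mice minus the mean of the other 13 for each of the 29 genes within 3 Mb of *Gabra2*, on the log2(1 + FPKM) scale, against the middle of the gene (open points have a mean under 1). *Gabra2* lay at −0.95, and all others lay between −0.36 and 0.22.

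The genes whose levels were most like those of *Gabra2* over the 16 mice were *Wdfy1* (Pearson r 0.87), *Uhrf2* (0.83), *Pcgf5* (0.79), *Gigyf2* (0.79) and *Tirap* (0.78), among genes with a mean of at least 1. Spearman's rho for them was between 0.73 and 0.85. The WY mice form a separate cluster for *Gabra2*, and over the 13 mice without WY r was 0.65 for *Wdfy1*, 0.79 for *Uhrf2*, 0.68 for *Pcgf5*, 0.67 for *Gigyf2* and 0.77 for *Tirap*. With MO5, the lowest of the 13 for *Gabra2*, also left out, r was 0.69, 0.68, 0.44, 0.59 and 0.49 in the same order. None of the 5 lies on chromosome 5.

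Between MY and MO mice, limma called 3 of the 7 subunit genes at an FDR of 0.05, against 25.6% of all 18167 genes. *Gabrb2* and *Gabra5* fell in MO mice and *Gabrg1* rose, where 12.5% of all genes fell and 13.1% rose. Between WO and MO mice, 2 of the 7 were called, against 27.9% of all genes, and both of them (*Gabrb2* and *Gabra5*) fell, where 12.9% of all genes fell and 15% rose. With so few genes, nothing particular to the 7 is read from these counts. The median log2 fold change over the 7 genes was −0.14 in MY vs. MO and −0.08 in WO vs. MO, beside 0.0047 and 0.00035 over all genes. The comparisons share the MO mice and are not independent. In whole spinal cord, fewer cells of a type and less RNA per cell cannot be told apart. With a fold change of at least 1.5 added to the threshold, 0 of the 7 were called in either comparison. All calls remained without MO5.

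**Figure D4:**
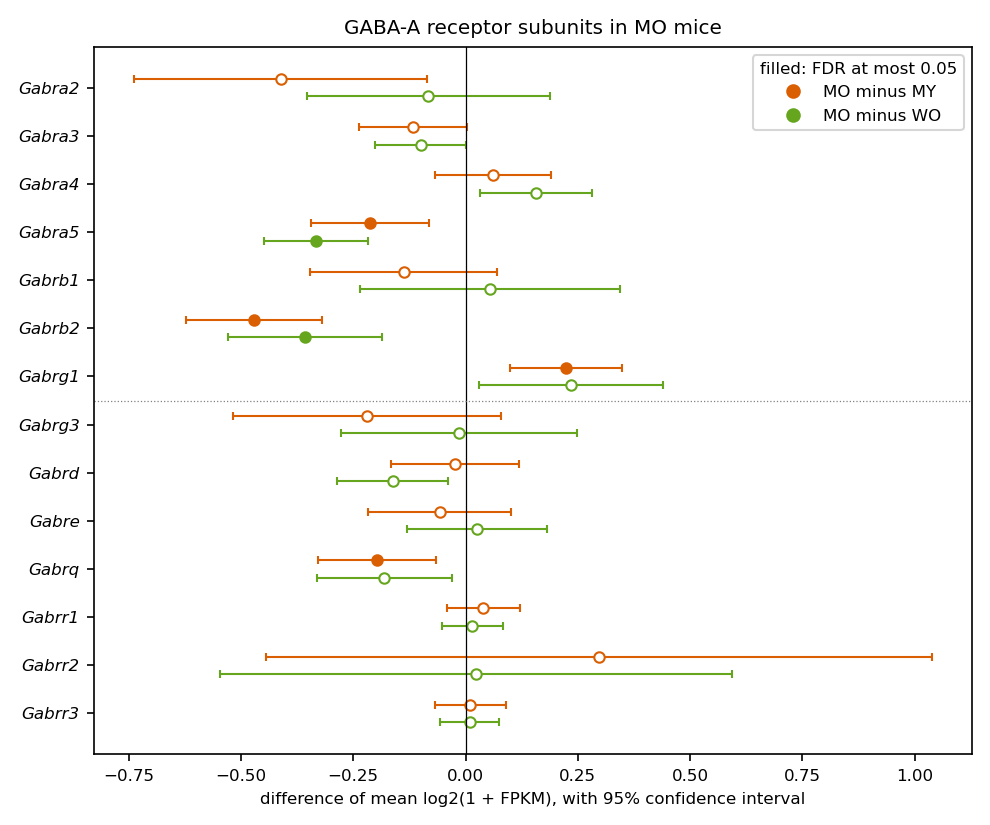
Log2 difference of MO from MY mice (orange) and from WO mice (green) for 14 GABA-A subunit genes, the 7 chosen genes above the dotted line, with 95% confidence intervals from the limma fit. Filled points had an FDR of at most 0.05, and those of *Gabra5* and *Gabrb2* were filled and below 0 in both.

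For *Gabra2*, each MO mouse was below every MY mouse. MO minus MY was −0.41 (SE 0.14) and did not pass the threshold (FDR = 0.0678). It passed without MO5 (−0.29, FDR = 0.0127), in batch 1 alone (−0.27, FDR = 0.0251) and in 1 fit of all 4 groups (−0.41, FDR = 0.032). With mice blocked by replicate number it also passed (−0.273, FDR = 0.0323), but MO4 and MO5 have no MY partner and drop out of that estimate. The call thus turned on MO5 and, with all mice kept, on the fit. MO and WO mice overlapped, and MO minus WO was −0.08 (SE 0.12, FDR = 0.683), or 0.03 without MO5. This difference was 0.08 within batch 1 (3 against 3 mice) and −0.33 within batch 2, where MO5 is 1 of 2 MO mice.

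*Gabra5* encodes the alpha-5 subunit, which forms mainly extrasynaptic receptors that carry tonic inhibition. Its level was 4.54, 4.61, 4.47, 4.68 and 4.45 in the MO mice, 4.79, 4.73 and 4.76 in the MY mice, 4.86, 4.98, 4.93, 4.83 and 4.81 in the WO mice, and 4.58, 4.83 and 4.70 in the WY mice. Every MO mouse was below every MY and WO mouse, and the WY mice spanned both ranges. *Gabra5* fell by 0.33 in WO vs. MO (SE 0.05, FDR = 0.000913), by 0.39 within batch 1 and by 0.26 within batch 2. This call held without any single mouse (FDR 0.000556 to 0.00311). It fell by 0.21 in MY vs. MO (SE 0.06, FDR = 0.0274), a call that was lost without MO3, MY1, MY2 or MY3 (FDR up to 0.107) and with mice blocked by replicate number (FDR = 0.0589).

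*Gabra3* encodes the alpha-3 subunit. Its level was 5.32, 5.51 and 5.29 in WY, 5.46, 5.40 and 5.46 in MY, 5.37, 5.40, 5.51, 5.43 and 5.39 in WO, and 5.42, 5.39, 5.26, 5.29 and 5.24 in MO. All pairs of groups overlapped, and MO minus MY (−0.12, SE 0.05, FDR = 0.145) and MO minus WO (−0.10, SE 0.05, FDR = 0.137) did not pass. *Gabra4*, whose alpha-4 subunit belongs to extrasynaptic receptors, was 2.55, 2.65 and 2.71 in WY, 2.50, 2.57 and 2.65 in MY, 2.37, 2.60, 2.51, 2.54 and 2.38 in WO, and 2.62, 2.73, 2.54, 2.70 and 2.61 in MO. Groups overlapped here too. MO minus WO was 0.16 (SE 0.06, FDR = 0.061) and passed without MO3 or WO2 (lowest FDR 0.0352) and in 1 fit of all 4 groups (FDR = 0.0412), while MO minus MY was 0.06 (SE 0.06, FDR = 0.493).

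As FPKM counts fragments per length of transcript, the alpha subunit mRNAs can be set side by side within a mouse. The FPKM of *Gabra2*, *Gabra3*, *Gabra4* and *Gabra5*, the alpha genes among the 7, summed to 90.2 ± 7.91 in WY, 120 ± 2.67 in MY, 112 ± 4.99 in WO and 102 ± 8.97 in MO (mean ± SD), where MO5 was lowest at 87.6. *Gabra2* made up 19.9%, 21.6% and 22.6% of this sum in the WY mice, and from 28.4% (MO5) to 39.9% (MY2) in the others. With less *Gabra2* in the sum, *Gabra3* held 45.0 ± 1.88% in WY, against 35.3 ± 0.965% in MY, 37.4 ± 1.67% in WO and 38.4 ± 2.20% in MO. In all MY mice *Gabra2* was the most abundant of the 4 mRNAs, and in all WY mice it came after *Gabra3* and *Gabra5*. *Gabra4* stayed between 3.80% and 6.25% in all mice. These shares describe the mRNA, not the assembled receptors.

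The alpha subunits also differ in a codon of their extracellular part that is known to decide whether classical benzodiazepines such as diazepam bind. A histidine codon is found there in alpha-2 and alpha-3, which bind them, and an arginine codon in alpha-4. The 27 coding bases around it are shown for these 3 genes from GENCODE M21 transcripts (GRCm38, all on the minus strand), with that codon in capitals. The codon was CAC in *Gabra2* and *Gabra3* and AGG in *Gabra4*. The windows lie in exon 4 of *Gabra4* and exon 5 of the other 2 genes, at chr5:71014493-71014519, chrX:72501156-72501182 and chr5:71641140-71641166 in the order shown.
Gabra2: gataccttctttCACaatgggaaaaag
Gabra3: gataccttcttcCACaatggtaaaaaa
Gabra4: gatactttcttcAGGaatggaaagaaa

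Among the beta subunits, *Gabrb2* showed the largest change of the 7 genes that passed the test. Its level was 3.03, 3.09, 2.94, 3.24 and 3.14 in the MO mice, 3.58, 3.51 and 3.59 in MY, 3.25, 3.49, 3.66, 3.43 and 3.40 in WO, and 2.93, 3.66 and 3.47 in WY. All MO mice were below all MY and WO mice, with MO4 (3.24) and WO1 (3.25) closest, and WY1 was below all MO mice. *Gabrb2* fell by 0.47 in MY vs. MO (SE 0.07, FDR = 0.0017) and by 0.36 in WO vs. MO (SE 0.08, FDR = 0.00611), and both calls held with any single mouse left out (highest FDR 0.0124 and 0.0166). MO minus WO was −0.45 within batch 1 and −0.23 within batch 2. *Gabrb1* was 3.35, 3.19, 2.95, 3.13 and 3.34 in MO, 3.37, 3.34 and 3.27 in MY, 2.80, 3.09, 3.48, 3.37 and 2.94 in WO, and 2.77, 3.42 and 3.30 in WY. Its SD was 0.28 in WO and 0.34 in WY, and all pairs of groups overlapped. MO minus MY was −0.14 (SE 0.09, FDR = 0.32) and MO minus WO was 0.05 (SE 0.13, FDR = 0.814).

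*Gabrg1*, a gamma subunit that astrocytes express as well as neurons, was the gene among the 7 that rose in MY vs. MO as fitted. Its level was 3.90, 3.94, 3.71, 3.80 and 3.83 in the MO mice, 3.64, 3.59 and 3.61 in MY, 3.43, 3.84, 3.82, 3.52 and 3.41 in WO, and 3.40, 3.64 and 3.56 in WY. All MO mice were above all MY and WY mice, and overlapped with WO2 and WO3. *Gabrg1* rose by 0.22 in MY vs. MO (SE 0.05, FDR = 0.0183), a call lost without MY1, MY2 or MY3 (FDR up to 0.0709). It was also lost in 1 fit of all 4 groups (FDR = 0.111) and with mice blocked by replicate number (FDR = 0.069). In WO vs. MO the difference was 0.23 (SE 0.09, FDR = 0.0867), 0.16 within batch 1 and 0.35 within batch 2, and passed without WO2 or WO3 (lowest FDR 0.0355) and in 1 fit of all 4 groups (FDR = 0.0486).

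For each gene other than *Gabra2*, the most similar gene over the 16 mice was named in the same way. *Gabrb2* was most like *Slc17a6*, the vesicular glutamate transporter of spinal excitatory neurons (r 0.99). *Gabra5* was most like *Agtr2*, an angiotensin receptor gene (0.95), *Gabrg1* like the integrin gene *Itgav* (0.94), and *Gabrb1* like *Itgb8*, another integrin gene (0.93). *Gabra3* was most like *Gnl3l* (0.91) and *Gabra4* like *Gpm6a* (0.88). Without the WY mice these r were between 0.89 and 0.98, with or without MO5.

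Of 9 further GABA-A subunit genes examined, 7 were in the table. In MY vs. MO, 1 of these 7 fell and none rose (median log2 fold change −0.02), and in WO vs. MO none passed (0.01), where 12.5% and 12.9% of all genes fell. *Gabrq* fell by 0.20 in MY vs. MO (SE 0.06, FDR = 0.0373), and this call was lost without any of MO2, MO3, MO4, MY1, MY2 and MY3 (FDR up to 0.153), in 1 fit of all 4 groups (FDR = 0.0922), with an intensity trend, with batch as a term and with mice blocked by replicate number. Its WO vs. MO difference of −0.18 (FDR = 0.0741) passed without WO1 or WO2 (lowest FDR 0.0399). Under quantile normalization *Gabrq* and *Gabrd* passed as falls in WO vs. MO, where 40.7% of the calls over all genes were then rises, against 53.8% as fitted. *Gabrg3* (mean 1.29 in the 13 mice other than WY), *Gabrr2* (1.25), *Gabrd* (0.68) and *Gabre* (0.63) were low and did not pass as fitted. *Gabrg3* passed in MY vs. MO without MO5 (log2 fold change −0.32, FDR = 0.0147), in batch 1 alone (FDR = 0.0187) and with mice blocked by replicate number. *Gabrd* (FDR = 0.0537 in WO vs. MO) passed there without MO2 or WO2 (lowest FDR 0.032), in 1 fit of all 4 groups (FDR = 0.0401), on log2(FPKM + 0.1), under quantile normalization and with an intensity trend. *Gabrr1* and *Gabrr3* were at most 0.10.

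Of 17 genes in the table that assemble GABA-A receptors or place them at synapses, 9 fell and 1 rose in MY vs. MO (median −0.17), and 7 fell and 1 rose in WO vs. MO (−0.13, or 9 and 1 under quantile normalization). Of all genes, 12.5% fell and 13.1% rose in MY vs. MO, and 12.9% fell and 15% rose in WO vs. MO, as fitted. Under quantile normalization 40.7% of the WO vs. MO calls over all genes were rises, against 53.8% as fitted, so falls made up more of all calls too. These are shares of calls and not of all genes, so nothing is read from the 9 WO vs. MO falls under it. *Gphn*, which encodes the scaffold gephyrin, fell by 0.23 (SE 0.05, FDR = 0.00792) and by 0.18 (SE 0.04, FDR = 0.0073). *Lhfpl4*, which links the receptor to neuroligin-2, fell by 0.20 (FDR = 0.00832) and by 0.26 (FDR = 0.00186), and *Nlgn2* itself fell by 0.18 (FDR = 0.0396, lost without any of 7 mice) and by 0.21 (FDR = 0.00653). *Iqsec3* fell by 0.25 (FDR = 0.0224) and by 0.20 (FDR = 0.0185), the first call being lost without any 1 of the MY mice and the second without WO5 (FDR = 0.0504). *Slitrk3* fell by 0.35 in MY vs. MO (FDR = 0.0145, lost without MY1 or MY3) and by 0.24 in WO vs. MO (FDR = 0.0492, lost without any of 7 mice). *Gabarap*, a trafficking protein that also serves in autophagy, was the gene that rose, by 0.36 (SE 0.08, FDR = 0.0102, and 0.0503 without MY3) and 0.39 (SE 0.07, FDR = 0.00265). With batch 1 alone (3 against 3 mice), all 8 WO vs. MO calls of this list were lost, among them those of *Gphn*, *Lhfpl4*, *Nlgn2*, *Iqsec3*, *Slitrk3* and *Gabarap*. With mice blocked by replicate number, the MY vs. MO calls of *Gphn* (FDR = 0.0557), *Lhfpl4* (FDR = 0.0509) and *Nlgn2* (FDR = 0.0878) and the WO vs. MO call of *Slitrk3* (FDR = 0.112) were lost.

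For the making, packaging, uptake and breakdown of GABA, 5 of 9 genes fell in MY vs. MO (median −0.18) and 4 in WO vs. MO (−0.14), beside 12.5% and 12.9% of all genes, and none rose. *Slc6a11*, the GABA transporter GAT-3 of astrocytes, fell by 0.45 (SE 0.06, FDR = 0.00147) and by 0.51 (SE 0.05, FDR = 7.56e-05). *Slc32a1*, which loads GABA and glycine into vesicles, fell by 0.33 (SE 0.05, FDR = 0.00235) and by 0.43 (SE 0.04, FDR = 3.44e-05). *Gad2*, which makes GABA, fell by 0.23 in MY vs. MO (FDR = 0.00791), a call lost in 1 fit of all 4 groups (FDR = 0.117) and with mice blocked by replicate number (FDR = 0.0699). MO minus WO was −0.14 (FDR = 0.0644) and passed without WO1 (FDR = 0.014). *Aldh5a1*, of GABA breakdown, fell by 0.21 (FDR = 0.00365) and by 0.19 (FDR = 0.000914), the second call being lost in batch 1 alone.

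Among 7 genes that set or regulate the chloride gradient, 5 fell and none rose in either comparison (medians −0.37 and −0.27), beside 12.5% and 12.9% of all genes that fell. *Slc12a5*, the neuronal chloride exporter KCC2 that makes GABA inhibitory, fell by 0.38 (SE 0.07, FDR = 0.00632) and by 0.45 (SE 0.06, FDR = 0.000377). The importer *Slc12a2* (NKCC1) fell by 0.51 (SE 0.12, FDR = 0.0148, lost without MY1 or MY2) and by 0.39 (SE 0.09, FDR = 0.00887). *Car7*, a neuronal carbonic anhydrase, fell by 0.53 (FDR = 0.0234, lost without MO3 or any 1 of the MY mice) and by 0.68 (FDR = 0.0028).

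Of 7 genes of the glycine system, which shares many spinal synapses with GABA, 5 fell in MY vs. MO (median −0.32) and 4 in WO vs. MO (−0.37), beside 12.5% and 12.9% of all genes as fitted, and none rose. Under quantile normalization 5 fell in WO vs. MO, where 40.7% of the calls over all genes were then rises, against 53.8% as fitted. These are shares of calls and not of all genes, so nothing is read from that count. The glycine receptor gene *Glra1* fell by 1.09 in MY vs. MO (SE 0.17, FDR = 0.00251) and by 0.71 in WO vs. MO (SE 0.21, FDR = 0.03), the latter being lost without any of 8 mice (FDR up to 0.0695), within batch 1 (FDR = 0.104) and in 1 fit of all 4 groups (FDR = 0.121). The neuronal glycine transporter *Slc6a5* fell by 0.84 (SE 0.14, FDR = 0.00298) and by 0.78 (SE 0.14, FDR = 0.00224), and the glial transporter *Slc6a9* fell by 0.47 (FDR = 0.00792) and by 0.49 (FDR = 0.00142). Among 6 genes of the metabotropic GABA-B receptor, 2 fell in each comparison (medians −0.11 and −0.14), beside the same shares as fitted, and 1 rose in WO vs. MO, where 15% of all genes did. Under quantile normalization 3 fell in WO vs. MO, with the same move toward falls among the calls over all genes, and nothing is read from this count either. The subunit gene *Gabbr2* fell by 0.60 (SE 0.06, FDR = 0.000317) and by 0.42 (SE 0.08, FDR = 0.00268). The auxiliary subunit gene *Kctd16* fell by 0.23 (FDR = 0.0471, lost without any of 6 mice) and by 0.38 (FDR = 0.00789), and *Kctd12* rose by 0.36 in WO vs. MO (FDR = 0.0101). In batch 1 alone the WO vs. MO calls of *Gabbr2*, *Kctd16* and *Kctd12* were lost. *Slc6a5* kept its WO vs. MO call there, and its MY vs. MO call was lost in 1 fit of all 4 groups. With mice blocked by replicate number, the WO vs. MO call of *Glra1* (FDR = 0.0517) and the MY vs. MO call of *Kctd16* (FDR = 0.0881) were lost.

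Of the 7 substrain genes, *Nnt* rose by 0.36 in WO vs. MO (SE 0.08, FDR = 0.0055), with no overlap between MO (3.67 to 4.04) and WO (3.41 to 3.60), although 1 fit of all 4 groups did not call it (FDR = 0.0713). In batch 1 *Nnt* was 3.87 to 4.04 in MO and 3.41 to 3.48 in WO. In batch 2 the groups were closer, at 3.74 (MO4) and 3.67 (MO5) against 3.60 in both WO4 and WO5. *Cyfip2* fell by 0.25 in MY vs. MO (FDR = 0.0212, lost without any 1 of the MY mice, in 1 fit of all 4 groups and with mice blocked by replicate number) and by 0.23 in WO vs. MO (FDR = 0.0107, lost in batch 1 alone). The old mice of the mutant and control lines thus also differed in *Nnt*, mostly in batch 1, and transgene and line cannot be told apart in WO vs. MO.

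For genes named from the lists and outside the 7, the change with age was compared between the mutant and control lines, as (MO − MY) − (WO − WY), a difference that passed for 17.7% of all genes in limma. Many of the list genes were named for their changes in MO mice, which enter this difference, so nothing is read from how many of them passed. It was −0.88 for *Gabbr2*, −0.58 for *Slc6a11*, −0.54 for *Slc12a5* and −0.51 for *Slc32a1*. Without WY1 it was nearer to 0, at −0.58, −0.46, −0.41 and −0.38 in the same order, and these genes were still called. For the 7 subunit genes and for those named as like them this difference was not tested, since the WY mice took part in choosing them.

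The counts of cell type markers stand beside 12.5% of all genes that fell and 13.1% that rose in MY vs. MO, and 12.9% and 15% in WO vs. MO. Of 6 motor neuron markers, 5 fell in MO mice in both comparisons, and their summed FPKM was 51.2 ± 4.75 in MO, against 66.5 ± 2.84 in MY, 75.6 ± 4.59 in WO and 59.4 ± 11.9 in WY (45.7 in WY1). The most abundant of them was *Slc5a7*, and none of the 6 was near 0. Of 4 inhibitory neuron markers, 3 fell in MY vs. MO and 2 in WO vs. MO, with summed FPKM of 175 ± 11.6 in MO (193 in MO5), 223 ± 9.38 in MY, 224 ± 10.2 in WO and 199 ± 39.6 in WY (154 in WY1), *Gad1* being the most abundant. All 4 also belong to the GABA or glycine lists above, so these counts repeat calls given there and are not a separate result. Of 3 excitatory neuron markers, 1 fell in MY vs. MO and 2 in WO vs. MO, led by *Slc17a6*, with sums of 51.9 ± 2.83 in MO, 64.1 ± 2.51 in MY, 60.7 ± 3.88 in WO and 59.2 ± 9.26 in WY. Of 6 general neuronal markers, led by *Snap25*, 4 fell in both comparisons, and their sum was 2222 ± 106 in MO, 2592 ± 49.7 in MY, 2781 ± 124 in WO and 2476 ± 27.5 in WY.

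Of 6 astrocyte markers, 3 rose in MY vs. MO and 5 in WO vs. MO, and their summed FPKM was 2938 ± 370 in MO, 1540 ± 26.7 in MY, 1265 ± 92.0 in WO and 1691 ± 59.0 in WY, with *Gfap* the most abundant. Of 6 microglial markers, 5 rose in both comparisons, with sums of 429 ± 135 in MO and 106 to 107 on average in the other groups, led by *Tyrobp*. Of 6 oligodendrocyte markers, led by *Mbp*, 3 fell in MY vs. MO and 2 in WO vs. MO, and their sum varied widely among the old mice. In MO it was 6579 to 7191 in batch 1 against 21400 and 20800 in batch 2, while in WO it was 8855 to 9595 in batch 1 and, in batch 2, 4531 (WO4, the lowest mouse) and 23200 (WO5, the highest). The 2 oligodendrocyte precursor markers did not pass in either comparison (sum 10.8 to 14.2 per mouse, led by *Pdgfra*). None of the astrocyte or microglial markers was near 0. The 7 position genes of the spinal cord summed to 76.3 to 97.2 FPKM per mouse. In MY vs. MO, 2 of them fell (*Hoxc10*, *Hoxd11*), and in WO vs. MO, *Hoxd10* and *Hoxd11* rose and *Hoxc8* fell. *Hoxd11* was 1.13 to 1.40 in MO, 1.46 to 1.61 in MY, 0.42 to 1.26 in WO and 0.89 to 1.51 in WY. The part of these cell types, of the level of the cord and of batch in the levels of the genes described here was not tested.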

How the data were processed

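Reads were trimmed (Trimmomatic), mapped to mm10 (TopHat) and turned into FPKM (Cufflinks) by the authors, who dropped genes at 0 FPKM in 8 or more mice and deposited log2(1 + FPKM) values adjusted for batch by ComBat. Batch 2 held old mice only, so age and batch were partly confounded in that adjustment. The fits took no account of it, and differences within a batch and FPKM shares rest on adjusted values. Tool versions are not given in the sources used here. Of the deposited log2 values 915 were below 0 and none was exactly 0. Depth per gene is unknown.

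Each of the 4 comparisons was fitted over all 18167 genes on its own 2 groups with limma 3.58.1 in R 4.3.3 (lmFit, eBayes, two-sided), and a gene was called at a Benjamini-Hochberg FDR of at most 0.05. The age effect by genotype, (MO − MY) − (WO − WY), was fitted over all 16 mice and used only for genes outside the 7. Genes named as like a member were left out of it after their values were seen. The procedure was tested on simulated data, from which no result is given here. Positions and transcripts came from GENCODE M21 by symbol, and descriptions were computed in Python 3.11.15.

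Named were the 7 genes, other GABA-A subunits, up to 3 largest called rises and falls of each further list and comparison, the substrain genes, the 5 genes most like *Gabra2*, the gene most like each other member, and genes within 3 Mb of *Gabra2*. The results of some genes and sequences are not reported here, and the lists and their counts leave these out. The members and lists were chosen with earlier results of these data known. Alternatives were a fold change of at least 1.5, genes with a mean of at least 1, log2(FPKM + 0.1), quantile normalization, 1 fit of all 4 groups, batch 1 only, batch as a term, an intensity trend, a treat threshold of 1.2-fold, blocking on the replicate number, and leaving out single mice. In MY vs. MO, blocking on the replicate number also took MO4 and MO5 out of the estimate, since no MY mouse has their number. Leaving MO5 out of the *Gabra2* difference and of the correlations, and the alternatives of the age effect, were chosen after seeing the data. Markers of 15 cell types or tissues were summed as FPKM. Protein sequences were not used here.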

Additional observations from a re-analysis of the deposited data

Results flagged for a closer look

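Among 50 named genes in 100 groups of 5 mice, 5 values lay far from the rest of their group by Dixon's ratio, where chance gives about 1 in 20 groups. MO5 was low for *Gabra2* (4.69) and high for *Glra1* (5.15). WO3 stood apart for *Gphn* (4.99), *Lhfpl4* (4.43) and *Aldh5a1* (4.76).

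The change with age differed between mutant and control mice, (MO − MY) − (WO − WY), for 12 of the 32 genes named from the lists and tested, at an FDR of 0.05 in limma. Of all genes, 17.7% passed. Many of these lists' genes were named for their changes in MO mice, which enter this difference, so nothing is read from the number that passed. The genes named as like a subunit gene were not tested, since the WY mice took part in choosing them. The difference was positive for *Gabarap* and negative for the others. With single mice left out, 8 of the 12 were called every time. Without WY1, 3 were lost: *Lhfpl4* (FDR = 0.0899), *Slc6a9* (FDR = 0.0517) and *Cyfip2* (FDR = 0.074). Of the 16 fits with 1 mouse left out, only 2 called *Lhfpl4* and 5 *Cyfip2*, and *Aldh5a1* was lost without MY1 or MY3. Among the partners of inhibitory synapses it was −0.38 for *Iqsec3* (FDR = 0.0158), −0.31 for *Gphn* (FDR = 0.0111) and −0.20 for *Lhfpl4* (FDR = 0.0448), and it was 0.48 for *Gabarap* (FDR = 0.0167). For transporters and enzymes it was −0.58 for *Slc6a11* (FDR = 0.0024), −0.51 for *Slc32a1* (FDR = 0.00488), −0.22 for *Aldh5a1* (FDR = 0.0238), −0.74 for *Car7* (FDR = 0.014), −0.54 for *Slc12a5* (FDR = 0.00693) and −0.43 for *Slc6a9* (FDR = 0.0186). For the receptor gene *Gabbr2* it was −0.88 (FDR = 0.0167), and of the substrain genes it was −0.41 for *Cyfip2* (FDR = 0.0329). Without WY1 the difference was nearer to 0 for each of these genes but *Car7* (−0.81). It was then −0.58 for *Gabbr2*, −0.28 for *Cyfip2* and −0.16 for *Aldh5a1*.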

How the results depend on the processing

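Over both tested comparisons and all alternatives, the 7 genes gave 266 values. Of these, 236 kept their side of the threshold, 20 lost a call, 10 gained one and 0 reversed. Only the 3 MY vs. MO and 2 WO vs. MO calls could be lost, so all 20 losses fall on them. Most other values were of genes not called as fitted, so the total overstates how steady the calls were. With an added fold change of 1.5, 890 genes were called in MY vs. MO, 836 in WO vs. MO and 46 in WY vs. WO, and 0 of the 7 in either tested comparison. Against a fold change of 1.2, treat called 755, 839 and 3 and again 0 of the 7. Batch 1 alone gave 2612 calls in WO vs. MO, with fewer mice. In 1 fit of all 4 groups *Gabra4* (FDR = 0.0412) and *Gabrg1* (FDR = 0.0486) were also called in WO vs. MO. That fit called 5 of all genes in WY vs. MY. WY vs. MY gave 1 gene as fitted, and 2 with genes of a mean of at least 1 or with an intensity trend. WY vs. WO gave 204 genes as fitted and 85 on log2(FPKM + 0.1). Where no cause is named, the cause was not tested.

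With 1 mouse left out, calls ranged from 2586 to 5130 in MY vs. MO, 9 (without WY3) to 182 in WY vs. WO and 1 to 5 in WY vs. MY. Members called in MY vs. MO ranged from 1 (without any 1 of the MY mice) to 4. In WO vs. MO *Gabra5* and *Gabrb2* stayed called, with *Gabra4* added without MO3 or WO2 and *Gabrg1* without WO2 or WO3. Nothing is read from the number of members called. Quantile normalization moved the share of higher calls from 51.2% to 39.4% in MY vs. MO and from 53.8% to 40.7% in WO vs. MO, with the same 3 and 2 of the 7 called. Blocking on the replicate number gave 68 calls in WY vs. WO, 3746 in MY vs. MO and 4115 in WO vs. MO. It called 2 of the 7 in either of the latter, with *Gabra2* gained (FDR = 0.0323) and *Gabra5* (FDR = 0.0589) and *Gabrg1* (FDR = 0.069) lost in MY vs. MO. There MO4 and MO5 have no MY mouse of their number, so the block also took them out of the estimate. Batch 1 alone, without a block, called *Gabra2* (FDR = 0.0251), *Gabra5* (FDR = 0.0223) and *Gabrg1* (FDR = 0.0449), so the gain of *Gabra2* is not put down to blocking. Mice with the same number deviated together by r of 0.177, 0.085 and 0.151 in MY vs. MO, where 6 of 6 correlated best with their own number, and by −0.207 to 0.091 in WO vs. MO, where 1 of 10 did. In WY vs. WO r was 0.377, −0.129 and 0.189 (4 of 6 best with their own number), and in WY vs. MY −0.099, −0.2 and −0.019 (0 of 6). As the comparisons differed in this, the numbers were not taken as pairs. The *Gabra2* difference of WY stayed between −0.85 and −1.03 in all its alternatives, and the age effect by genotype was called for 2227 to 3939 genes.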
